A study of Mus musculus with 9 samples.

Results

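Cell-permeable octyl-L-2HG was added to round spermatids (RS) together with oxamate, an inhibitor of lactate dehydrogenase, and their transcriptome was compared with that of RS exposed to oxamate alone. The comparison holds 6 of the 9 libraries of the study, the 3 with oxamate and octyl-L-2HG (OxL2HG, libraries 7 to 9) and the 3 with oxamate (Ox, libraries 4 to 6). Of 55414 genes listed, the 25128 with 10 or more counts summed over all 9 libraries were included. RS were sorted by FACS from testes of Stra8-Tom mice, in which a Stra8-driven iCre switches on tdTomato in germ cells and whose genotype the labels give as WT, with no age. Cells of all groups were cultured for 24 h with 0.15% DMSO. The Ox cells also received 24 mM oxamate, the OxL2HG cells 24 mM oxamate and 0.3 mM octyl-L2HG, and the vehicle cells (Ctr, libraries 1 to 3) nothing else. Octyl-L-2HG was given only together with oxamate, and none of the 9 libraries is a control for the octyl ester itself. The authors describe incubations in triplicate. Neither they nor the labels say that the cells of these replicates came from separate animals. The p-values thus measure the spread between these libraries, which may be technical.

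L-2-hydroxyglutarate (L-2HG) is a reduced form of 2-oxoglutarate that lactate and malate dehydrogenases can make as a side reaction. It can compete with 2-oxoglutarate in dioxygenases, among them JmjC histone demethylases, TET enzymes and the prolyl hydroxylases that control HIF. Round spermatids are the haploid cells that follow meiosis. They transcribe genes of the acrosome, the tail and the small basic proteins that replace histones in the sperm head, and many of these transcripts are stored before they are translated.

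The Ox libraries held 32434700 to 37799549 counted reads and the OxL2HG libraries 32339533 to 39445771. Ox library 4 lay apart from Ox libraries 5 and 6 on the first principal component, which held 48.4% of the variance. It stood at 0.85, the other Ox libraries at -7.29 and -5.66, and the OxL2HG libraries between 15.5 and 18.3. Counts are therefore also given without Ox library 4. Defining markers of round spermatids were abundant, and most of those of somatic cells were near 0. The Sertoli cell marker Fshr had no read in any library, Sox9 stayed at or below 0.054 CPM (counts scaled to the same library total), and the Leydig cell marker Hsd17b3 at or below 0.027. The highest somatic markers were the endothelial Vwf, at 7.03 to 12.4 CPM over the 9 libraries, the Sertoli cell marker Inha, at 2.74 to 4.72, and the macrophage marker Adgre1, at 1.358 to 2.336. The summed level of 9 macrophage, endothelial and red cell markers was 10.9 to 13.2 CPM in OxL2HG libraries and 14.7 to 15.2 in Ox libraries, and that of 8 peritubular and stromal markers was 3.15 to 3.34 against 3.57 to 4.35. The summed level of 20 round spermatid markers was 4606 to 4814 against 5073 to 5175 CPM, and that of 24 spermatocyte markers 4857 to 4910 against 4643 to 4708. Within the spermatocyte sum, Hspa2 alone made up 2198 to 2258 CPM in OxL2HG and 2037 to 2150 in Ox libraries. Other members, such as Syce2 and Rec8, fell. For each of these 4 sums the exact permutation test (two-sided) gave p = 0.1, the smallest that 3 libraries against 3 allow. It gave the same p for 7 Leydig cell markers, at 0.886 to 1.14 CPM in OxL2HG and 0.648 to 0.82 in Ox libraries. The groups overlapped for 11 Sertoli cell markers (4.28 to 5.02 against 3.08 to 5.11) and 12 spermatogonia markers (25.9 to 29.0 against 28.0 to 29.2). In bulk RNA, fewer cells of one type and less RNA per cell cannot be told apart. The part of cell make-up in the results that follow was not tested.

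Transcripts that fell with octyl-L-2HG outnumbered those that rose, and they fell by more. Of 25128 genes, 2823 (11.2%) were called at an adjusted p under 0.05 (edgeR's quasi-likelihood test, adjusted after Benjamini and Hochberg). Of these, 798 (3.18%) were higher and 2025 (8.06%) lower in OxL2HG than in Ox. The median absolute log2 fold change was 0.29 among the genes called higher and 0.56 among those called lower. A change of at least 1 on the log2 scale was found in 16 genes called higher and 360 called lower. Of the genes called, 781 higher and 1959 lower had 3 OxL2HG libraries that did not overlap with the 3 Ox libraries, as 11.5% and 16.6% of all genes did in these directions. Without Ox library 4, 1575 genes were called higher and 2840 lower (4415 in all). The total was 1429 without Ox library 5 and 1396, 1465 and 1742 without OxL2HG libraries 7, 8 and 9. The balance of directions depended on the scaling: with total counts in place of TMM it was 421 higher and 2516 lower, and with DESeq2's size factors 1106 and 1831. DESeq2's Wald test, which differs also in its test and filter, gave 1258 and 1627.

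**Figure D1:**
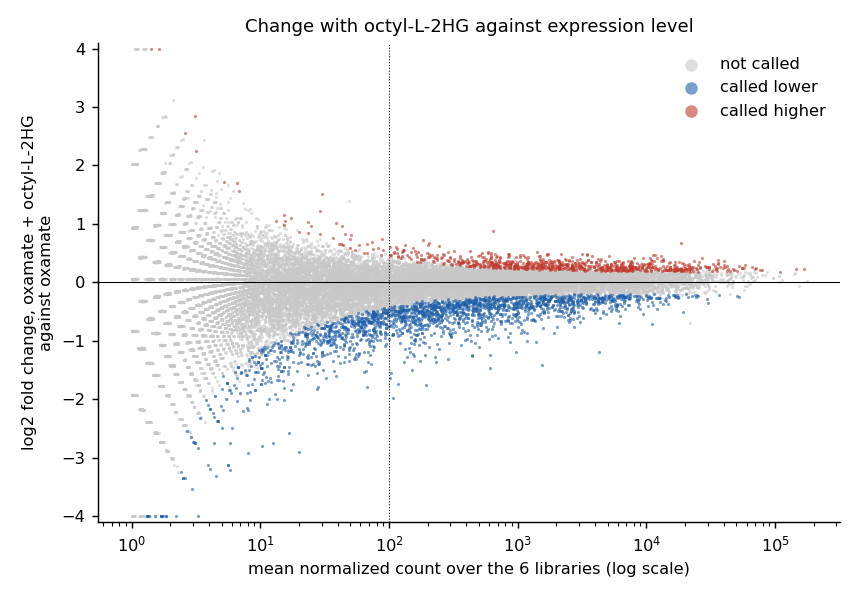
Log2 fold change of oxamate with octyl-L-2HG against oxamate (y axis, values beyond 4 drawn at the edge) against the mean normalized count over the 6 libraries (x axis, log scale) for genes with a mean of at least 1. Points are genes, blue for the 2025 called lower and red for the 798 called higher, of which those with a mean below 1 are not drawn, and the dotted line marks a mean of 100.

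The level of a gene went with the direction of its call. Well expressed genes, with 100 or more normalized counts on average over the 6 libraries, numbered 10696. Of these, 19.6% were called, 757 (7.08%) higher and 1342 (12.5%) lower, and their median log2 fold change was 0.01. Between means of 100 and 300, 2.21% were called higher and 15.3% lower. At means of 3000 or more, 12.5% were called higher and 7.94% lower. Among weaker transcripts the calls were thus mostly falls, and among the most abundant ones rises outnumbered falls.

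Among well expressed genes with a symbol other than Gm or Rik, a call and no overlap between groups, the deepest fall was that of Ahnak (ENSMUSG00000069833), which encodes a giant scaffold protein. It had 131, 195 and 188 normalized counts in the Ox libraries and 46.9, 37.9 and 45.3 in the OxL2HG libraries, which did not overlap. This was 3.92-fold lower by edgeR's quasi-likelihood test (log2 fold change -1.97, standard error 0.17, adjusted p = 2.81e-07). The vehicle libraries, with 182, 211 and 218, lay near the Ox libraries, and the log2 fold change of Ox against Ctr was -0.25 (adjusted p = 0.344). Camkk2, the calcium-dependent kinase upstream of AMPK, had 236, 339 and 322 normalized counts with oxamate and 90.5, 91.9 and 83.0 with both compounds (log2 fold change -1.76, standard error 0.14, adjusted p = 1.89e-07). Its OxL2HG libraries also lay below all 3 vehicle libraries (203 to 253). For Prdm16, a zinc finger transcription regulator of brown fat, the values were 167, 257 and 250.3 in Ox and 84.9, 75.8 and 77.3 in OxL2HG (log2 fold change -1.50, standard error 0.16, adjusted p = 3.85e-06). Nrros, which anchors latent TGF-beta at the cell surface, had 133, 183 and 148 in Ox and 51.4, 44.8 and 61.3 in OxL2HG (log2 fold change -1.55, standard error 0.16, adjusted p = 3.32e-06).

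Of the 12 deepest falls, 4 were of genes that oxamate had raised. The comparison of Ox with Ctr shares the Ox libraries with the comparison of OxL2HG with Ox, so the signs of the pair are linked, and each is given only beside the other. In Ox against Ctr, 5.19% of genes were called, 3.97% higher and 1.22% lower. Sh3bp4, a regulator of endocytosis, had 92.9, 90.0 and 106.1 normalized counts in Ctr, 160.2, 196 and 184 in Ox and 61.4, 45.9 and 54.7 in OxL2HG. Its log2 fold change was 0.90 for Ox against Ctr (adjusted p = 0.000158) and -1.73 for OxL2HG against Ox (adjusted p = 1.89e-07). With both compounds it lay below vehicle (log2 fold change -0.83). Tigd5, a gene derived from a transposon, had 118, 121 and 125 in Ctr, 196, 192 and 178 in Ox and 70.4, 62.0 and 85.8 in OxL2HG, again with all OxL2HG libraries the lowest of the 9. Cracdl and the olfactory receptor gene Olfr986 followed the same order, with log2 fold changes of 0.78 and 0.48 for Ox against Ctr and -1.28 and -1.31 for OxL2HG against Ox. The remaining falls among the 12 were those of Stk-ps2 (-1.40), the magnesium transporter gene Slc41a2 (-1.37), Togaram2 (-1.27) and Fam205a1 (-1.26). Stk-ps2 is annotated as a pseudogene and Fam205a1 and Olfr986 belong to multigene families, so reads of near-identical copies could have been counted elsewhere. All 12 were called in each of 14 alternative fits.

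The rises were smaller. Tnpo2, a nuclear import receptor, led them with 566, 411 and 377 normalized counts in Ox and 767, 841 and 880.0 in OxL2HG (log2 fold change 0.88, standard error 0.11, adjusted p = 2.88e-05), 1.83-fold higher and with no overlap. Ox library 4 was the highest of the Ox libraries, and without it the log2 fold change was 1.07. Phospho2, a phosphatase gene, was the most abundant of the 12, with 14570.1, 14271 and 14414 in Ox and 22239, 22745 and 23630.5 in OxL2HG (log2 fold change 0.67, standard error 0.06, adjusted p = 8.44e-07). Oxamate had lowered it from 17700.2 to 19915 in Ctr (log2 fold change -0.37, adjusted p = 0.000785), and the OxL2HG libraries lay above the vehicle libraries.

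The other rises were of genes with diverse roles. Pnisr, an SR-related splicing protein gene, had 126, 151 and 142 normalized counts in Ox and 207, 233 and 252 in OxL2HG (log2 fold change 0.73, standard error 0.14, adjusted p = 0.00193). Gcfc2, a factor of spliceosome turnover, rose by 0.58 on the log2 scale. Atp13a2, the lysosomal polyamine exporter, had 141, 97.0 and 74.2 in Ox and 152, 154 and 182 in OxL2HG (log2 fold change 0.64, standard error 0.16, adjusted p = 0.0127), where Ox library 4 came close to the OxL2HG libraries. Without it the log2 fold change was 0.92, and the call was lost in 3 of 14 alternatives. Rhot2, which ties mitochondria to their transport motors, rose by 0.59 and the adenylyl cyclase gene Adcy6 by 0.63. Rises of 0.67 for the membrane-bending protein gene Bin2, 0.62 for Zfp180, 0.60 for the p97 cofactor gene Ubxn2b and 0.55 for the acetyltransferase gene Kat14 were called in all 14 alternatives. Atad5, which unloads the PCNA clamp from DNA, rose by 0.55 and was called in 11 of them.

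**Figure D2:**
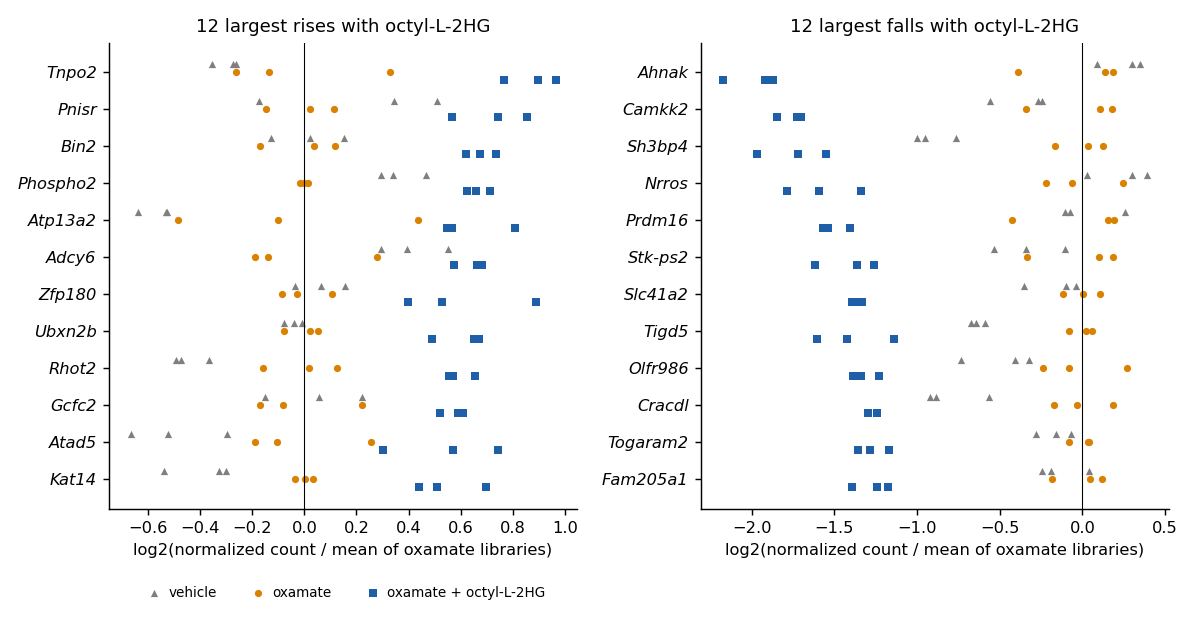
Log2 ratio of each library's normalized count to the mean of the 3 Ox libraries (x axis) for the 12 largest rises (left) and 12 largest falls (right) among named genes with a mean of at least 100. Triangles are vehicle, circles Ox and squares OxL2HG libraries, one symbol per library, and in every gene the 3 squares lie beyond the 3 circles.

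In absolute amount, the largest changes among called genes were modest shifts of very abundant transcripts. Spata20 had 61723, 55667 and 54088 normalized counts in Ox and 47302, 48025 and 48459.8 in OxL2HG (log2 fold change -0.25, standard error 0.06, adjusted p = 0.013), without overlap. Irgc1, a testis GTPase gene, fell from 30978 to 37084 in Ox to 26000.3 to 27227 in OxL2HG (log2 fold change -0.35) and Spata21 from 51460.5 to 58771 in Ox to 46100.0 to 46863 in OxL2HG (-0.22). In the other direction, the axonemal dynein gene Dnah8 had 140954, 127476 and 135352 in Ox and 163747, 154484 and 156954 in OxL2HG (log2 fold change 0.23, standard error 0.06, adjusted p = 0.0215). Phf7, a reader and ubiquitin ligase of histones needed for histone exchange in spermatids, had 101436 to 102846 in Ox and 110516 to 121040.0 in OxL2HG (log2 fold change 0.18, adjusted p = 0.0438), and its vehicle libraries (110580.0 to 118475) overlapped with OxL2HG. For Pabpc1, the poly(A) binding protein, OxL2HG library 9 (165074) overlapped with Ox library 6 (165300.0), with a log2 fold change of 0.23 (adjusted p = 0.038). Of these calls, those of Spata21 and Phf7 were lost in 6 of 14 alternatives, those of Dnah8 and Pabpc1 in 4 and that of Spata20 in 2.

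Dehydrogenases that can make L-2HG were not called. The germ cell lactate dehydrogenase gene Ldhc had 176314, 150026 and 142609 normalized counts in Ox and 143760.0, 147456 and 155908 in OxL2HG (log2 fold change -0.07, standard error 0.07, adjusted p = 0.648), and Ldha had 45304, 41419 and 40532 in Ox and 43189.8, 43609 and 44334 in OxL2HG (log2 fold change 0.04, adjusted p = 0.744). In both genes the groups overlapped. Mdh2 had 549 to 639.6 against 565 to 596, Mdh1 25.5 to 34.2 against 16.8 to 37.9, and Ldhb was close to 0 in both groups. D2hgdh, which encodes the dehydrogenase of D-2-hydroxyglutarate, the other enantiomer, was called lower, with 122, 136 and 139.5 in Ox and 72.6, 97.6 and 96.2 in OxL2HG (log2 fold change -0.57, standard error 0.15, adjusted p = 0.014). Over 18 genes of 2-hydroxyglutarate and related dehydrogenases, 1 (5.56%) was called higher and 2 (11.1%) lower, close to the 3.18% and 8.06% of all genes and the 7.08% and 12.5% of well expressed ones. None was lower without OxL2HG library 7, and 1 was lower without any 1 of the Ox libraries or OxL2HG library 9. The call of D2hgdh was lost in 2 of 14 alternatives. The higher one was Dlst, the succinyltransferase of the 2-oxoglutarate dehydrogenase complex, with 2874, 2260.5 and 2415 in Ox and 3322, 3327 and 3249 in OxL2HG (log2 fold change 0.39, standard error 0.08, adjusted p = 0.00214). The other lower one was Phgdh of serine synthesis, at 13.7 to 23.4 against 4.72 to 11.5 normalized counts, a call that was lost in 4 of 14 alternatives, among them without Ox library 4.

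Genes for the repackaging of sperm chromatin were the list with the largest share of falls. Transition proteins replace histones in the condensing nucleus and protamines then replace transition proteins. Of 16 genes tested in this group, 10 (62.5%) were called lower and none higher, against 8.06% and 3.18% of all genes, with a median log2 fold change of -0.30 against -0.04 over all genes. All 10 had a mean above 100, where 12.5% of genes were called lower. Between 8 and 13 were called lower under each alternative, and 13 without Ox library 4. The members Tnp1, Tnp2, Prm1 and Prm2 are also on the list of round spermatid markers.

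Tnp2, a transition protein gene, had 6449, 6779 and 6648 normalized counts in Ox and 5206, 4924 and 4615 in OxL2HG, and Tnp1 had 5579, 6076 and 5859 in Ox and 4885, 4737 and 4677 in OxL2HG. All OxL2HG libraries lay below all Ox libraries, and the log2 fold changes were -0.43 (standard error 0.07, adjusted p = 0.000293) and -0.29 (standard error 0.07, adjusted p = 0.00611) by edgeR's quasi-likelihood test. Prm1 had 3641, 3711 and 3611 in Ox and 2959.7, 2858 and 2935 in OxL2HG (log2 fold change -0.32, standard error 0.07, adjusted p = 0.0027), and Prm2 had 5093, 5213 and 5051 in Ox and 4245, 4162 and 4084 in OxL2HG (log2 fold change -0.30, standard error 0.06, adjusted p = 0.00378). In these 4 genes oxamate had already lowered the level against vehicle, with log2 fold changes of -0.32 for Tnp2, -0.26 for Tnp1, -0.45 for Prm1 and -0.38 for Prm2, each called. With both compounds the levels were lower still, at log2 fold changes of -0.75, -0.56, -0.77 and -0.68 against vehicle.

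Among spermatid histones the step with oxamate was not called in most genes, and the step with octyl-L-2HG was. The linker histone gene H1f7 had 6397, 6199.7 and 6784 in Ctr, 5802, 6398 and 6574 in Ox and 4674, 4359 and 4336 in OxL2HG (log2 fold change -0.49, standard error 0.07, adjusted p = 7.04e-05), and its log2 fold change for Ox against Ctr was -0.05 (adjusted p = 0.803). H1f9, another linker histone gene, had 16065, 13857 and 12309 in Ox and 9077, 10142 and 11407 in OxL2HG (-0.46, adjusted p = 0.00229). The H2A variant genes H2al2a and H2ap had log2 fold changes of -0.51 and -0.38, of which H2al2a had also been lowered by oxamate (-0.34, adjusted p = 0.0478). Prm3 (-0.32) and the histone H3.3 gene H3f3b (-0.30) completed the 10. Values of the 6 members that were not called were -0.24 for the remodeller gene Chd5, -0.27 for H1f6, -0.20 for Hmgb4, -0.19 for H2bl1, -0.09 for Rnf8 and 0.20 for Brdt, the bromodomain protein that removes acetylated histones. Over all 55 canonical and variant histone genes tested, 7 (12.7%) were called lower, against 8.06% of all genes, and none higher, with a median of -0.26. Of the 7, 5 are the packaging genes H1f7, H1f9, H2al2a, H2ap and H3f3b. H4c1 was another, with 524 to 595 against 381 to 424 normalized counts.

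**Figure D3:**
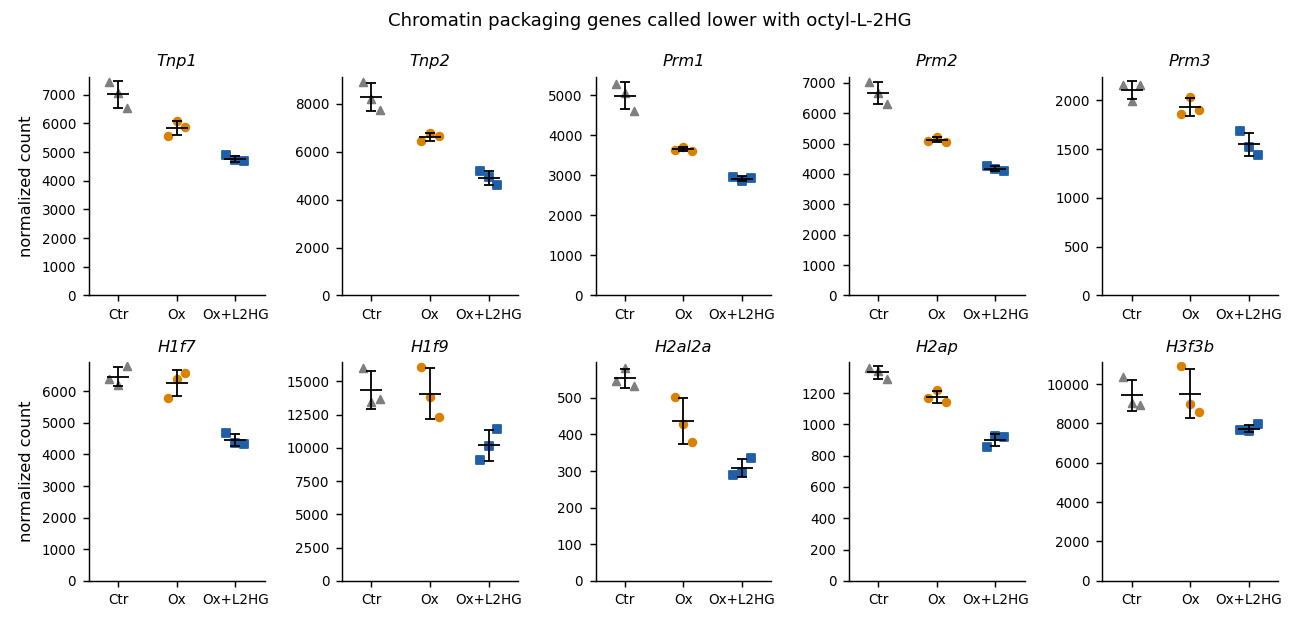
Normalized counts (y axes, from 0) of the 10 chromatin packaging genes called lower in OxL2HG than in Ox. Symbols are single libraries of vehicle (triangles), Ox (circles) and OxL2HG (squares), and the bars give the mean ± SD of 3 libraries. The 3 OxL2HG libraries are the lowest in each panel.

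Promoters of these genes were searched because the genes moved together and because spermatid genes are known targets of CREM, which binds cAMP response elements. RefSeq promoters (GRCm38.p6, from 250 bases before to 50 after the start) were matched by symbol for 9 of the 10 genes, all but H1f9. The letters TGANNTCA, a palindrome with 2 free bases at its centre that reads alike on both strands and includes the full element TGACGTCA, occurred in 4 of the 9 (44.4%), against 14.1% of 32851 RefSeq promoters and 13.1% of those of genes tested. They occurred in 21.3% of the 1742 promoters of genes called lower and in 7.53% of the 757 of genes called higher. Without Ox library 4 these shares were 20.7% and 7.5%, and among genes with a mean of at least 100 they were 22.5% and 7.45%, against 13.2% of all promoters at that level. TGACGTCA itself was in 2.81% of promoters of genes called lower, 2.25% of those called higher and 2.49% of those of genes tested. Among genes with a mean of at least 100 it was in 2.83% of promoters of genes called lower and 3.21% of all. A match is a description of the letters and not a binding site. The 4 promoters follow with the match in capitals. All are on the minus strand and are written 5′ to 3′ along the gene: Prm1 at chr16:10796774-10797073, Prm3 at chr16:10790865-10791164, Tnp1 at chr1:73015850-73016149 and H2al2a at chr2:17996909-17997208. The match begins 64, 60, 94 and 47 bases before the start, respectively.
Prm1: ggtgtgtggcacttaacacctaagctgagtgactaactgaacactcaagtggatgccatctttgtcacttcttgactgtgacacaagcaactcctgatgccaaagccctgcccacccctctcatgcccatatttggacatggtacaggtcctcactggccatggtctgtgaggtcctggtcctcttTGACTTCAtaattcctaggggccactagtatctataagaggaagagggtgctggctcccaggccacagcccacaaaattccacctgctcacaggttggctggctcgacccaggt
Prm3: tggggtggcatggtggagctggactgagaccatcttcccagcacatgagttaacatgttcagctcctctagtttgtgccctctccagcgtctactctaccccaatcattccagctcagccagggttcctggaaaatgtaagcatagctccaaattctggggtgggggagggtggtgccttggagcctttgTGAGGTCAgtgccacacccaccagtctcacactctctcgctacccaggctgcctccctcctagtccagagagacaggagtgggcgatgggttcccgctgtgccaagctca
Tnp1: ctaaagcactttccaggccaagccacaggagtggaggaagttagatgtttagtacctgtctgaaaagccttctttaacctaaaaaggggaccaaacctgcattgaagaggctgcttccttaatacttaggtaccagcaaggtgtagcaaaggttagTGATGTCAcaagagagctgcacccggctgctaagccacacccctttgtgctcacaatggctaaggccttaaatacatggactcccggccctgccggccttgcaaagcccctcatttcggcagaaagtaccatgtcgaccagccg
H2al2a: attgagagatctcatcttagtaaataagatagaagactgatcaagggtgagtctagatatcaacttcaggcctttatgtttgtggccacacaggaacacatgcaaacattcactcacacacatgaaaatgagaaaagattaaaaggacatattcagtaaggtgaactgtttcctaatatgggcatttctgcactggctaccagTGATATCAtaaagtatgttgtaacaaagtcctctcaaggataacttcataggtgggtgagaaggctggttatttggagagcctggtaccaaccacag

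Tnp2 and Prm2, which fell to a like degree, had no such match in their promoters. Of the members not called, only Hmgb4 had a match, 74 bases before the start. Prm1, Prm2, Prm3 and Tnp2 lie together on chromosome 16, between positions 10788606 and 10797073, and are not separate loci. The letters TATAAA, also searched, were in 22.2% of the 9 promoters and 9.83% of those of genes tested. Crem itself had 12031, 13055 and 13196 normalized counts in Ox and 11935, 11976 and 12266 in OxL2HG (log2 fold change -0.08, adjusted p = 0.494) and was not called.

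Round spermatid markers that were called were mostly lower, while spermatocyte markers showed no common direction. Of 20 round spermatid markers, 9 (45%) were called lower and 1 (5%) higher, with a median log2 fold change of -0.17. Of well expressed genes, as all 20 are, 12.5% were called lower and 7.08% higher. The 9 include Tnp1, Tnp2, Prm1 and Prm2, described above. The lowest was Tssk6, a testis-specific serine kinase, with 1280.3, 1116 and 982 in Ox and 583, 635 and 639 in OxL2HG (log2 fold change -0.86, standard error 0.11, adjusted p = 2.03e-05). The 1 higher was Acrbp, an acrosin binding protein (0.22), and its partner acrosin, Acr, had 0.14 (adjusted p = 0.2). Without OxL2HG library 7, 5 of the 20 were called lower. Of 24 spermatocyte markers 3 (12.5%) were called higher and 2 (8.33%) lower, against 3.18% and 8.06% of all genes, with a median of -0.03. The synaptonemal complex genes Sycp2 (0.37) and Syce1 (0.27) and the meiotic RNA regulator gene Meioc (0.37) were higher, and Syce2 (-0.49) and the meiotic cohesin gene Rec8 (-0.29) lower. Leaving out OxL2HG library 7 or OxL2HG library 8 left 1 called higher and 1 lower.

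Genes of the tail and of the acrosome were called in both directions. Of 40 sperm tail genes 5 (12.5%) were called higher and 8 (20%) lower, with a median log2 fold change near 0. All tail and acrosome genes tested were well expressed, and of such genes 7.08% were called higher and 12.5% lower. The lowest adjusted p was that of Tekt5, a microtubule inner protein of the flagellum, with 4475, 4509 and 4504 in Ox and 3451, 3247 and 3064 in OxL2HG (log2 fold change -0.47, standard error 0.07, adjusted p = 0.000102). Ropn1 of the fibrous sheath (-0.38) and Spag6 of the central pair (-0.26) fell as well. Of 34 acrosome and fertilization genes 4 (11.8%) were called higher and 7 (20.6%) lower, with a median of -0.07. Sppl2c, an intramembrane protease of spermatids, had 3633, 3450.4 and 3315 in Ox and 2231, 2269.8 and 2289 in OxL2HG (log2 fold change -0.61, standard error 0.07, adjusted p = 4.55e-06), whereas Zpbp2, which binds the zona pellucida, rose from 16781 to 17085 in Ox to 19934 to 20496 in OxL2HG (0.25). Without Ox library 4, 12 tail genes and 12 acrosome genes were called lower. Acrosome genes called lower fell to 4 without OxL2HG library 7 or OxL2HG library 8, and those called higher to 2 without Ox library 5, Ox library 6 or OxL2HG library 9 and to 1 without OxL2HG library 8. The counts of tail genes fell to 3 lower and 0 higher without OxL2HG library 7 or without OxL2HG library 8, and to 4 and 0 without Ox library 5 or without OxL2HG library 9.

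Immediate early genes, which respond to signals within minutes in many cells, were called lower more often than higher. Of 25 tested, 6 (24%) were called lower and none higher, against 8.06% and 3.18% of all genes, at a median log2 fold change of -0.26, and 6 to 8 were called lower in every alternative. Without Ox library 4, 8 were lower and 1 higher. Ier5 had 251, 245 and 292 normalized counts in Ctr, 357, 399.6 and 429.7 in Ox and 188, 199 and 192 in OxL2HG (log2 fold change -1.03, standard error 0.10, adjusted p = 1.82e-06). Its OxL2HG libraries lay below all vehicle libraries. For Egr3, a zinc finger transcription factor, the values were 316, 403 and 418 in Ctr, 541, 690.5 and 646 in Ox and 359, 347 and 375 in OxL2HG (log2 fold change -0.79, standard error 0.11, adjusted p = 5.86e-05). The orphan nuclear receptor gene Nr4a1 (-0.44) and the phosphatase gene Dusp1 (-0.50) were also lower, with log2 fold changes of 0.60 and 0.56 for Ox against Ctr and 0.16 and 0.06 for OxL2HG against Ctr. Klf2 fell by 0.57 and the AP-1 subunit gene Jund by 0.60 on the log2 scale. Egr1, the best known member, was not called, with 145, 141 and 143 in Ox and 143, 150.5 and 117 in OxL2HG.

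Genes of glucose use were called lower at about the share of well expressed genes. Of 35 glycolysis genes 5 (14.3%) were called lower and none higher, against 8.06% lower of all genes and 12.5% of well expressed ones, and the median was -0.06 against -0.04. Without OxL2HG library 8, 3 were lower, and 1 was called higher without Ox library 4, with DESeq2's size factors and with its Wald test. Slc2a3, the high affinity glucose transporter, had 11291, 10716 and 10321 normalized counts in Ctr, 26134, 20858 and 20192 in Ox and 15599, 15604 and 16294 in OxL2HG. It was raised by oxamate (1.06, adjusted p = 4.86e-08) and lowered by octyl-L-2HG (log2 fold change -0.50, standard error 0.08, adjusted p = 0.000262), and it stayed above vehicle by 0.56 with both compounds. Pfkfb3, which makes the activator of phosphofructokinase, fell by 0.35, Pkm by 0.34, and Gpi1 and the sperm enzyme gene Gapdhs by 0.25 each on the log2 scale. Of 33 HIF target genes, 4 (12.1%) were called lower and none higher, a share close to the 12.5% of well expressed genes, and all 4 (Slc2a3, Pfkfb3, Pkm and Gpi1) are also on the glycolysis list. With DESeq2's size factors or DESeq2's Wald test, 2 HIF targets were called higher. Of 87 nuclear-encoded respiratory chain genes 1 was called higher and 2 lower, and of 11 mitochondrially encoded genes 2 were called lower, mt-Cytb (-0.43) and mt-Nd2 (-0.37). No mitochondrially encoded gene was called without Ox library 5, Ox library 6 or OxL2HG library 9. No nuclear-encoded gene of the respiratory chain was lower without OxL2HG library 7 or OxL2HG library 8. The number of these lower was 4 without Ctr library 1 or Ox library 6 and 5 with total counts as the scaling.

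Genes of the endoplasmic reticulum and its stress response were called in both directions, 5 of 32 (15.6%) higher and 2 (6.25%) lower, with a median of 0.03. Among well expressed genes, as 30 of the 32 are, 7.08% were called higher and 12.5% lower, and among all genes 3.18% and 8.06%. Clgn, the glycoprotein chaperone calmegin of germ cells, had 31519, 35835 and 37326 normalized counts in Ox and 47432, 44707 and 43394 in OxL2HG (log2 fold change 0.37, standard error 0.07, adjusted p = 0.00139). The chaperone genes Hsp90b1 (0.37) and Calr (0.23) were also called higher. The stress sensor gene Ern1 had 127, 90.0 and 138 in Ctr, 221, 231 and 248 in Ox and 146, 180.3 and 163 in OxL2HG (log2 fold change -0.51, standard error 0.13, adjusted p = 0.0121), and Pdia4, a disulfide isomerase gene, followed the same order (0.75 for Ox against Ctr, -0.48 for OxL2HG against Ox). Without OxL2HG library 7, OxL2HG library 8 or Ox library 5, 2 genes of the list were called higher. Of 40 targets of the integrated stress response 1 (2.5%) was called higher and 4 (10%) lower, against 3 and 2 without Ox library 4, and 1 was lower without Ox library 6, OxL2HG library 7 or OxL2HG library 9. Chac1, a glutathione-degrading enzyme gene, was at 63.6 to 76.7 in Ctr, 155 to 159 in Ox and 105.6 to 134 in OxL2HG (-0.40, adjusted p = 0.0378), a call lost in 8 of 14 alternatives, and Asns of asparagine synthesis fell from 2134 to 2302 in Ox to 1545 to 1704 in OxL2HG (-0.48) with a log2 fold change of -0.08 for Ox against Ctr. Of 31 heat shock genes 3 (9.68%) were called in each direction, and none was called higher without Ox library 5, OxL2HG library 7 or OxL2HG library 8. The transcription factor gene Hsf2 had the lowest adjusted p of this list (4320.3, 5500.3 and 5950.3 in Ox, 3297, 3526 and 3472 in OxL2HG, log2 fold change -0.61, standard error 0.09, adjusted p = 9.99e-05) and the related Hsf5 was called higher (0.20). Of 34 NRF2 antioxidant genes 1 (2.94%) was called higher (Nfe2l1, 0.26) and 4 (11.8%) lower (Prdx4, Srxn1, Gsr and Osgin1, -0.33, -0.38, -0.67 and -0.25). The calls of Nfe2l1 and Osgin1 were each lost in 7 of 14 alternatives. Antioxidant genes numbered 2 higher and 7 lower without Ox library 4, and without OxL2HG library 7 none was higher and 2 were lower.

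Genes of the JmjC domain family, which holds 2-oxoglutarate dioxygenases and also the polycomb cofactor gene Jarid2, were called in both directions. Of 31 genes 2 (6.45%) were called higher and 5 (16.1%) lower, with a median of -0.03. These shares are near the 7.08% and 12.5% of well expressed genes, which 22 of the 31 are. The polycomb cofactor gene Jarid2 had 809.6, 980.4 and 951 in Ox and 601, 550.2 and 577 in OxL2HG (log2 fold change -0.66, standard error 0.10, adjusted p = 0.000127), and for Ox against Ctr its log2 fold change was 0.10 (adjusted p = 0.662). Kdm4b had 176 to 223 against 114 to 128 (-0.69) and Kdm3b 179 to 278 against 152 to 160.3 (-0.63), both H3K9 demethylase genes. Kdm4a, of the same function, had 495 to 585 in Ctr, 672 to 692 in Ox and 490.3 to 523 in OxL2HG, a log2 fold change of 0.35 for Ox against Ctr (adjusted p = 0.013) and -0.42 for OxL2HG against Ox (adjusted p = 0.00211). Kdm2a of H3K36 demethylation rose from 736 to 796 in Ox to 956 to 972 in OxL2HG (0.32). Between 3 and 9 of the family were called lower under the alternatives, 6 without Ox library 4 and 3 without Ox library 5, where none was called higher. Of 31 dioxygenases outside this family 1 was called lower, Fto, the RNA demethylase (-0.21, lost in 8 of 14 alternatives). Tet1 was called higher, but it had 0 reads in all Ox libraries and 2.23 to 3.45 normalized counts in OxL2HG, too few for a fold change.

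Other chromatin genes were also split. Of 47 centromere and heterochromatin genes 8 (17%) were called higher and 2 lower, with a median of 0.10. Of all genes 3.18% were called higher and 8.06% lower, and of well expressed genes, which 38 of the 47 are, 7.08% and 12.5%. The heterochromatin protein gene Cbx3 had 1246, 1363 and 1387 normalized counts in Ox and 1662, 1679 and 1790.1 in OxL2HG (log2 fold change 0.36, standard error 0.07, adjusted p = 0.0023). The passenger complex gene Cdca8 had 841, 649 and 636 in Ox and 930.3, 991 and 962 in OxL2HG (0.44), where Ox library 4 was the highest of the Ox libraries, and the centromere motor gene Cenpe rose by 0.34. Cenpj, named among centromere proteins but known for centriole duplication, was lower (-0.55). The count of 8 was 9 without Ox library 4, 4 with total counts as the scaling, 3 without Ox library 5, OxL2HG library 7 or OxL2HG library 9, and 2 without OxL2HG library 8. Of 37 histone methyltransferases 4 were called higher and 2 lower (2 and 1 without Ox library 5, OxL2HG library 7 or OxL2HG library 8), of 45 remodellers 5 and 3 (10 and 5 without Ox library 4, no rise without Ox library 5 or OxL2HG library 7), of 34 acetyltransferases and bromodomain proteins 2 and 3 (6 and 5 without Ox library 4), and of 28 deacetylases and corepressors only Hdac4 was called, lower (-0.47), but 3 were higher without Ox library 4. No acetyltransferase or bromodomain protein gene was higher without Ox library 5, OxL2HG library 7 or OxL2HG library 9. In that list 1 was lower without Ox library 5, Ox library 6 or OxL2HG library 9. The H3K9 methyltransferase genes Setdb1 and Setdb2 rose by 0.29 and 0.34, and the remodeller genes Arid1a, Chd8 and Dpf3 fell by 0.76, 0.53 and 0.38. Of 17 genes of DNA methylation 3 were called lower, the methyltransferase genes Dnmt3a (-0.61) and Dnmt3l (-0.34) and the glycosylase gene Tdg (-0.91), and the 1 called higher was Tet1, described above.

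**Figure D4:**
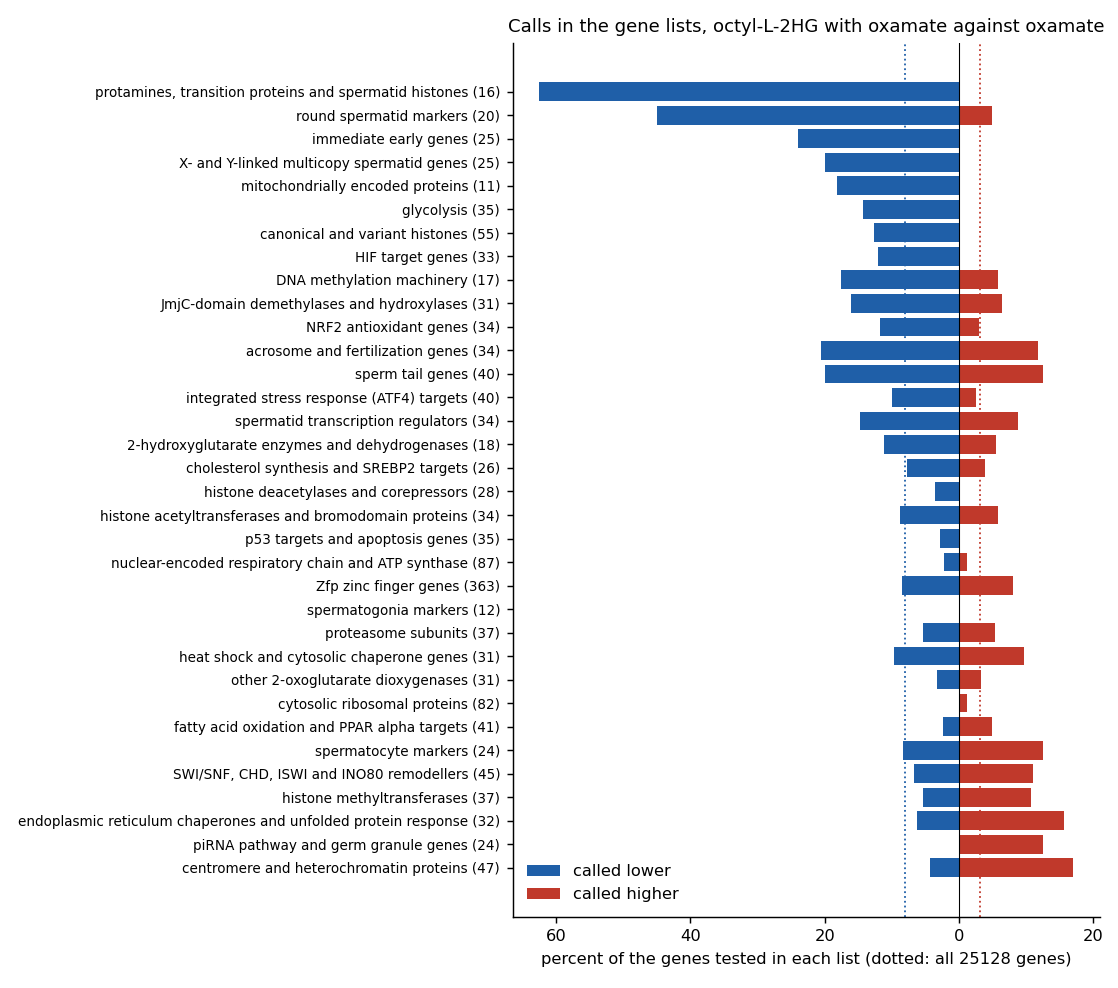
Percent of the genes tested in each list that were called lower (blue, left) or higher (red, right) in OxL2HG than in Ox, for lists with at least 11 genes tested, with the number tested in parentheses. Dotted lines give the shares over all 25128 genes (8.06% and 3.18%). Packaging genes reach 62.5% lower and centromere and heterochromatin genes 17% higher.

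The remaining lists held genes called in both directions or few calls. Of 34 spermatid transcription regulators 3 (8.82%) were higher and 5 (14.7%) lower, against 7.08% and 12.5% of well expressed genes (2 lower without OxL2HG library 9), with Mybl1, the activator of pachytene piRNA genes, at 888 to 1009 in Ox and 1283 to 1321 in OxL2HG (0.43) and the TFIID subunit gene Taf7l at 1182 to 1347 and 791 to 819 (-0.68). Of 24 piRNA and germ granule genes 3 were higher (Mybl1, Ddx4 and Tdrd3) and none lower, and 1 was higher without any 1 of the OxL2HG libraries. Of 25 genes listed as X- and Y-linked spermatid genes 5 (20%) were lower, against 8.06% of all genes, and none higher, and 2 were lower without Ox library 5, OxL2HG library 7 or OxL2HG library 8. Of the 5, 4 (Cypt1, Cypt2, Cypt3 and Cypt4) were of the Cypt family, whose members are similar enough that reads could be shared, and Cypt4 is on chromosome 9 in the annotation, so 4 of the 5 are sex-linked. Of 363 Zfp genes 29 (7.99%) were higher and 31 (8.54%) lower, against 3.18% and 8.06% of all genes. Without Ox library 5 these numbers were 16 and 15, and without OxL2HG library 7, 8 or 9 they were 10 and 16, 10 and 19, and 12 and 16. Of 82 ribosomal protein genes 1 was higher, of 37 proteasome genes 2 in each direction, of 26 cholesterol genes 1 higher and 2 lower, of 41 fatty acid oxidation genes 2 higher and 1 lower, and of 35 p53 and apoptosis genes 1 lower, Bcl2l11 (-0.49), which encodes the death promoter BIM, though 4 of these were higher without Ox library 4. Fatty acid oxidation genes numbered 4 higher and 3 lower without Ox library 4 and none in either direction without OxL2HG library 7 or OxL2HG library 8. Ribosomal protein genes numbered 3 higher and 1 lower and proteasome genes 4 higher and 2 lower without Ox library 4. No ribosomal protein gene was called without Ox library 5, Ox library 6, OxL2HG library 7 or OxL2HG library 8. No proteasome gene was lower without OxL2HG library 7, and 1 was without OxL2HG library 8. No cholesterol gene was called without OxL2HG library 8. Among markers of spermatogonia, Sertoli, Leydig and peritubular cells none was called, though 1 of 3 Sertoli cell markers tested was higher without Ox library 4. Of 7 macrophage, endothelial and red cell markers tested 1 was called lower, Vwf (-0.30, adjusted p = 0.0491), a call that was lost in 11 of 14 alternatives, among them without Ox library 4.

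Calls were also counted by the structure of a gene and its chromosome. Among well expressed protein-coding genes, 70 of 240 genes with 1 exon (29.2%) were called lower and 11 (4.58%) higher, and the median log2 fold change was -0.12. Of 8938 genes with 2 or more exons, 1009 (11.3%) were lower and 689 (7.71%) higher, and the median was 0.02. Without Ox library 4 these shares lower were 35.8% and 15.1%. Genes with 1 exon include intronless copies that are expressed in spermatids. Ccin, the calicin gene of the sperm head skeleton, had 5341, 5619.8 and 5261 normalized counts in Ox and 3747, 3737 and 3816 in OxL2HG (log2 fold change -0.52). The actin-related gene Actrt2 had 8038, 7388 and 7042 in Ox and 4904, 5040.4 and 5208 in OxL2HG (-0.57), and Pdha2, the testis copy of the pyruvate dehydrogenase subunit, had 6991, 6689 and 6642 in Ox and 4827, 4915 and 4853 in OxL2HG (-0.48). None of these 3 was called for Ox against Ctr. Rbmxl2, an RNA binding protein gene of germ cells, fell by 0.77 and Actl10 by 0.78. Pabpc6 (0.36) and Taf7l2 (0.32) were among the 11 that rose. Expressed pseudogenes had a similar share, with 61 of 214 (28.5%) lower and 11 higher. Long non-coding genes had 188 of 1196 (15.7%) lower and 39 (3.26%) higher. Of all well expressed genes 12.5% were lower and 7.08% higher. Summed over pseudogenes of any level, OxL2HG libraries had 6938 to 6980 CPM and Ox libraries 6762 to 7504. For long non-coding and unconfirmed genes the sums were 24330 to 24750 against 24530 to 26210. Both sums overlapped between groups. The number of long non-coding genes called lower was 287 without Ox library 4, 90 without Ox library 5, and 97 and 108 without OxL2HG libraries 7 and 8. Without Ox library 5 the share was 7.53%, below the 7.67% of all genes at that level.

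X-linked genes rose rarely. Of 235 X-linked protein-coding genes with a mean of at least 100, 40 (17%) were called lower and 2 (0.851%) higher, Spaca5 and Pwwp3b, with a median of -0.11. Of 8917 autosomal genes 11.6% were lower and 7.82% higher. These sets were not matched for level. Of all genes with means between 100 and 300, 15.3% were lower and 2.21% higher. The part of level in the X-linked shares was not tested. Leaving out the 18 X-linked genes with 1 exon gave 37 lower and 2 higher of 217. Wdr13 had 292, 315 and 316 in Ox and 192, 209 and 224 in OxL2HG (-0.56), and the ubiquitin activating enzyme gene Uba1 4807, 4315 and 4196 in Ox and 3525, 3534 and 3525 in OxL2HG (-0.33). Summed over 929 X-linked genes, the level was 6171 to 6328 CPM in OxL2HG libraries and 6436 to 7159 in Ox libraries (exact permutation test, two-sided, p = 0.1, the smallest possible). Without Ox library 4, 57 X-linked genes were lower and 2 higher. Without Ox library 5 the number lower was 20, and without OxL2HG library 7 or OxL2HG library 8 it was 16 (6.81%), when 820, 836 and 834 of all 10696 genes at that level were called lower. Without OxL2HG library 7 or OxL2HG library 8 the X-linked share was thus below that of all genes.

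**Figure D5:**
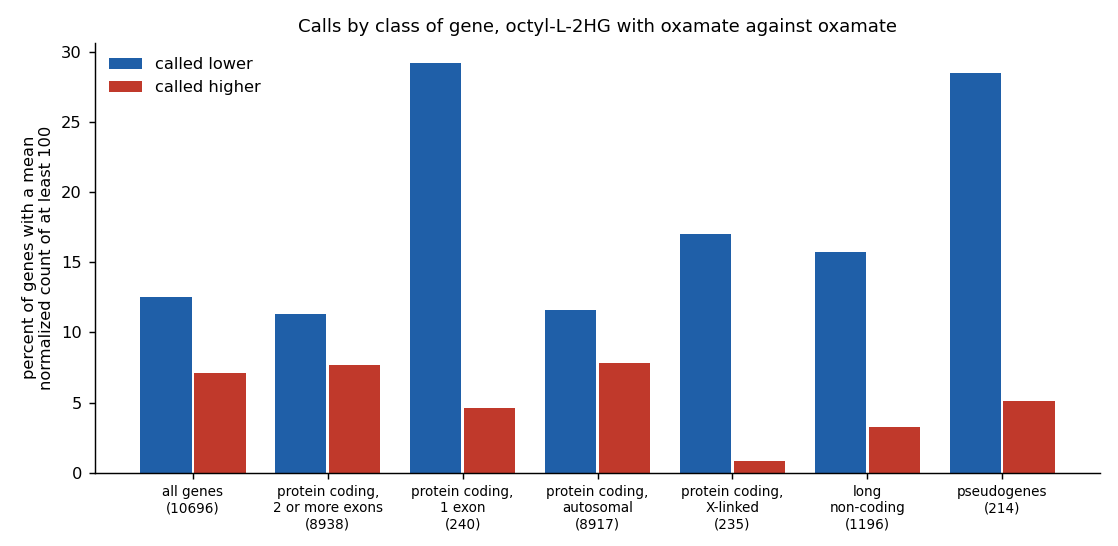
Percent of well expressed genes (100 or more normalized counts on average) that were called lower (blue) or higher (red) in OxL2HG than in Ox, by class, with the number of genes in parentheses. Protein-coding genes with 1 exon (29.2%) and pseudogenes (28.5%) have the tallest blue bars, and X-linked genes the shortest red bar (0.851%).

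Across the 9178 protein-coding genes with a mean of at least 100, Spearman's rho of the log2 fold change was 0.134 with transcript length and 0.144 with the number of exons, given as a description since genes are not independent replicates. With the genes cut by transcript length into 3 groups of like size, 432 of those with the shortest transcripts were called lower and 113 higher, against 306 and 276 of the middle group and 341 and 311 of those with the longest. Exon number, biotype and chromosome came from GENCODE M21, in which 99.6% of the tested genes were found by their identifier.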

How the data were processed

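RNA of RS was sequenced, with 3 libraries in each of 3 groups. The authors trimmed reads with cutadapt 2.10, aligned them with TopHat2 2.1.1 to the mouse genome (GRCm39 by the labels) with Ensembl annotation and deposited counts per gene from HTSeq-count 2.01, without normalization. The normalized signal that the authors deposited is the count divided by 1 DESeq2 size factor per library and was not tested. The strand setting of the counting is not given in the sources used here, so it is unsure to which gene reads of overlapping, antisense or near-identical genes went. No column of sample values went unused.

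In R 4.3.3, edgeR 4.0.16 was run on genes with at least 10 counts over 9 libraries (TMM, 1 quasi-likelihood fit over 3 groups with robust estimation, Benjamini-Hochberg adjustment over all genes tested, threshold 0.05). Normalized counts in the text are counts divided by the TMM-scaled library size, relative to the mean size of the libraries. Fold changes are the fitted values of edgeR. On simulated counts of 24599 genes, the test called 99 of 100 genes lowered 2-fold and 39 of 100 lowered 1.3-fold, with 6 unchanged genes called. Alternatives were other scalings, DESeq2 1.42.0, other filters and thresholds, a fit of 6 libraries, a residual component as a covariate and each library left out. The same alternatives for the classes by exon number, chromosome and biotype were added after seeing the data.

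The comparison and the gene lists were chosen with earlier results of these data known. Genes were named by a rule. Candidates had an average of 100 or more normalized counts over 6 libraries and a symbol other than Gm or Rik. Among those with a call and no overlap, the 12 largest rises and falls were taken. Among those with a call, the 3 largest rises and falls in counts were taken. The rule also took up to 5 called genes per list by adjusted p, and Ldha, Ldhb, Ldhc, Mdh1, Mdh2 and D2hgdh. Not every gene that the rule picked is reported here. Prm3, H3f3b, Dusp1, Egr1, Acrbp, Acr, Crem, uncalled packaging genes, marker genes of other cells and the genes named for exon number or the X chromosome fall outside it and were chosen after their values were seen. Called list members below an average of 100 (Phgdh, Gsr, Tet1, Dnmt3a and Tdg) were named as well. Promoters came from RefSeq on GRCm38.p6, and no other coordinates were used.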

Additional observations from a re-analysis of the deposited data

How the results depend on the processing

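No paired analysis was possible because the replicate numbers 1 to 9 do not repeat between groups. With a median shift over genes of 0.0255 for DESeq2's size factors and -0.0435 for total counts, scaling moved the balance of directions. Genes called higher, 798 by the reported test, numbered 421 with total counts, 1258 with DESeq2's Wald test and 1429 without a filter on low counts. The counts of genes called, called higher and called lower were 1261, 221 and 1040 at an adjusted p under 0.01. With an absolute log2 fold change of at least 0.5 they were 1219, 68 and 1151. At an unadjusted p under 0.05 they were 5934, 2135 and 3799, and with a residual component as a covariate 5718, 2392 and 3326. That component was computed after group means were removed, so it takes out spread within groups and is no check of the contrast. Leaving out each library gave 1396 to 4415 genes called, 242 to 1575 higher and 1119 to 2840 lower. The total was 4415 without Ox library 4, 1429 without Ox library 5, and 1396, 1465 and 1742 without OxL2HG libraries 7, 8 and 9. DESeq2 shared 2399 of the 2823 genes, and its adjusted p was NA for 9256. Why these counts moved was not tested. Of 2181 alternative values of named genes, 1914 kept direction and call, 259 lost the call and 8 changed sign, each in a gene that was not called. These were Ldha with total counts (-0.0004287) and Mdh1 with DESeq2's size factors (0.002934) and Wald test (0.002841), and, over the fits that lack 1 library, Ldhb (-0.8471 to 0.1147), Ldhc (-0.1302 to 0.02681), Mdh2 (-0.07727 to 0.0321) and Mdh1 (-0.2161 to 0.2461). On simulated counts, 39 of 100 genes lowered 1.3-fold were called. Far fewer genes were changed there than were called here, so that share does not measure the power of this comparison. Genes called higher had a median absolute log2 fold change of 0.29. With 3 libraries a group, genes not called are not shown to be unchanged.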
